A study of Homo sapiens with 8 samples.

Results

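Collagen processing enzymes and chaperones are the proteins that modify, fold, trim and crosslink collagen chains, and 10 of their genes were examined for LARP6 binding. They were taken by name: the lysyl hydroxylases PLOD1, PLOD2 and PLOD3, the prolyl hydroxylase subunits P4HA1 and P4HA2, the chaperone SERPINH1, the procollagen C-proteinase BMP1 with its enhancer PCOLCE, and the lysyl oxidases LOX and LOXL2. All 10 genes were found, among 9193 protein-coding genes with at least 1 tested cluster. They held 542 of the 176826 clusters that the authors tested in 4 libraries. LARP6 belongs to the La-related family of RNA-binding proteins. The assay was eCLIP: ultraviolet light fixes RNA to the protein that holds it, and the RNA pulled down with an antibody to LARP6 is sequenced beside an input cut from the same size range. The cells were wild-type (WT) human hepatic stellate cells, which make the collagen of the liver, grown in DMEM with serum and crosslinked at 254 nm with 400 mJ/cm2. The TGFβ1 group received TGFβ1 at 5 ng/ml, and for the control group the labels give both "untreated" and "DMSO". Each condition had 2 immunoprecipitated and 2 input libraries (8 samples), and the inputs enter here only through each cluster's deposited fold over input.

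Fibrillar procollagen chains are made on the endoplasmic reticulum. There prolyl and lysyl residues are hydroxylated and the triple helix folds with the help of chaperones, and outside the cell the propeptides are removed and the chains are crosslinked. TGFβ1 is a cytokine that activates hepatic stellate cells, the main source of scar collagen in the fibrotic liver. LARP6 is known for binding a stem-loop near the start codon of type I and type III collagen mRNAs.

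A cluster is a stretch of RNA that the authors compared between an immunoprecipitated library and its input. It is called enriched here at a log2 fold over input of at least 3 together with a −log10 p of at least 3, both of them the authors' values per cluster. The number of tested clusters was 31137 and 54536 in TGFβ1 replicates 1 and 2, and 51273 and 39880 in control replicates 1 and 2. The lists hold no counts, so read depth is unknown. The labels do not say whether the 2 replicates were separate cultures. The p-values between conditions thus rest on a spread between libraries that may be technical. In limma, used below, that spread is also pooled over genes. The authors' −log10 p of a cluster in a library compares that library with its input and holds no spread between libraries. All 10 stellate cell markers had clusters in every library, and hepatocyte markers (ALB, APOA1, TTR, SERPINA1 and TF) had none in any. Of the cholangiocyte markers, 2 had clusters, whose sum moved with TGFβ1, as given beside the cluster numbers below. Values of the 4 libraries are given in the order TGFβ1 replicates 1 and 2, then control replicates 1 and 2.

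LARP6 enrichment in at least 1 library was found in 4 of the 10 genes, PLOD3, P4HA2, LOXL2 and BMP1, and in 10.3% of all protein-coding genes with a tested cluster. PLOD1, PLOD2, P4HA1, LOX, SERPINH1 and PCOLCE had tested clusters in every library and no enriched cluster in any. The 4 enriched genes held 6 enriched places in all, of which 1 lies near a gene's 5′ end. The authors' list of peaks from both replicates held 5 member peaks under TGFβ1, in those 4 genes, and 2 in control, in PLOD3 and LOXL2. Of all genes tested in both libraries, 7.04% held a list peak under TGFβ1 and 3.88% in control.

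The 5′ ends come first, because LARP6 is known for sites there. For 7 members the RefSeq promoter table of GRCh38.p14 gives a transcript start at the 5′ end of the gene, and the 30 transcribed bases from that start are shown 5′ to 3′ with the bases under a TGFβ1 replicate 2 cluster in capitals. They are shown because clusters reached them in 6 of the 7 genes and none of those clusters was enriched.
PLOD1: gtcgCGAAGTTTCCAGCCCTGCGAGCGCCG
PLOD2: gctgctccgtgcctCCACCGACGACCTCAC
PLOD3: acatgtgtcaagcggctggctcagcccaga
P4HA1: gcccAGTCGCGCCGCCAGCGGGCTGAGGGT
LOX: AGACACTGCCCGCTCTCCGGGACTGCCGCG
SERPINH1: aagagtagAATCGTGTCGCGGCTCGAGAGC
PCOLCE: gattatcctGCTGCTGCCGCCACCGCTGCT

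These stretches lie at chr1:11934717-11934746 on the plus strand for PLOD1, chr3:146161155-146161184 on the minus strand for PLOD2, chr7:101217552-101217581 on the minus strand for PLOD3, chr10:73096837-73096866 on the minus strand for P4HA1, chr5:122078230-122078259 on the minus strand for LOX, chr11:75562253-75562282 on the plus strand for SERPINH1 and chr7:100602363-100602392 on the plus strand for PCOLCE. Their GC content ran from 56.7% in SERPINH1 to 80.0% in P4HA1. PLOD3 is the 1 gene of these without a cluster in the first 50 nt. The 22 gene and library values there ran from a log2 fold of -1.21 to 1.47, the highest −log10 p was 2.51, and 0 were enriched. The start that the table gives for P4HA2 lies 762 nt inside the gene bounds, so its sequence is not shown.

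Within the first 500 nt of the gene, PLOD3 was the only member with an enriched cluster. Its highest log2 fold there was 2.79 and 3.72 in the TGFβ1 libraries and 3.75 and 2.75 in the control libraries. PLOD2 had 1.62 and 2.36 in the TGFβ1 libraries and 1.79 and 0.26 in the control libraries, and LOX had 1.36 and 1.27 in the TGFβ1 libraries and 0.70 and 1.33 in the control libraries. SERPINH1, which encodes the collagen chaperone HSP47, lay below 0 in every library, at -0.04 and -0.77 under TGFβ1 and -0.13 and -0.86 in control. The collagen mRNAs that these proteins serve stood well above all members: COL1A1 reached 7.59 and 7.79 in the TGFβ1 libraries and 7.91 and 7.70 in the control libraries over the same window. COL3A1 reached 9.14 and 9.48 in the TGFβ1 libraries and 9.36 and 9.06 in the control libraries. Of all protein-coding genes with a cluster in this window, 1.79% and 3.02% had an enriched one in the TGFβ1 libraries and 1.16% and 1.43% in the control libraries.

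**Figure D1:**
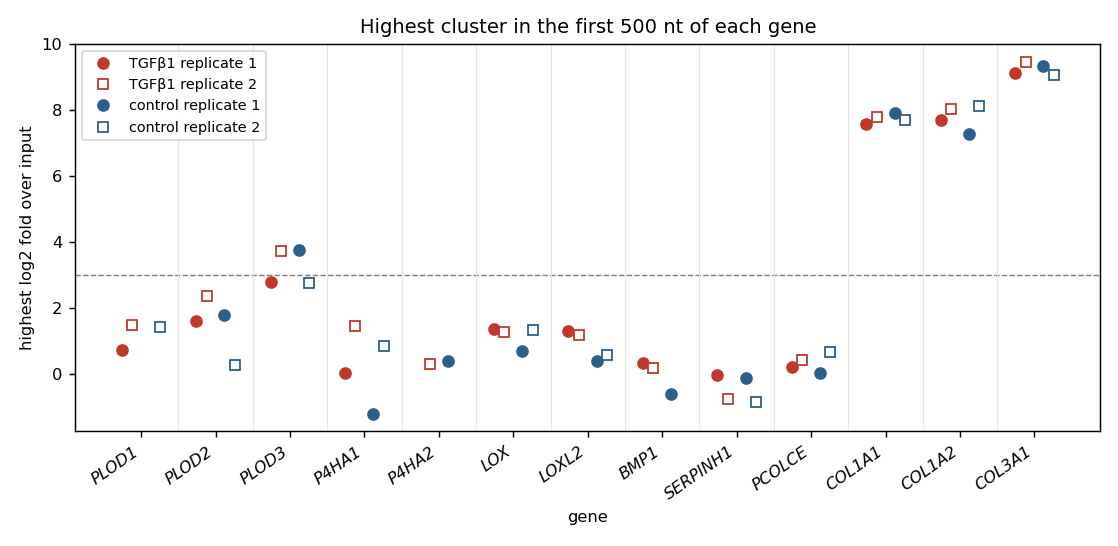
Highest log2 fold over input (vertical axis) of any tested cluster in the first 500 nt of each gene (horizontal axis), with one point for each library, TGFβ1 to the left of control. COL1A1, COL1A2 and COL3A1 lie above 7 in all libraries, and among the 10 processing genes only PLOD3 has points above the dashed line at the enrichment limit of 3.

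PLOD3 encodes a lysyl hydroxylase that also carries glycosyltransferase activity. Its enriched place is at chr7:101217284-101217414 on the minus strand (GRCh38), is 131 nt long and lies 167 to 297 nt from the 5′ end of the gene. The highest log2 fold over it was 2.79 and 3.72 in the TGFβ1 libraries and 3.75 and 2.75 in the control libraries, with −log10 p of 5.43 and 16.8 under TGFβ1 and 3.51 and 5.33 in control. One library of each condition thus passed the limit and the other lay just under it. The mean was 3.26 ± 0.66 under TGFβ1 and 3.25 ± 0.70 in control (SD, n = 2 each), a difference of 0.01 that is far smaller than the spread between replicates. The place is in both of the authors' lists, at a log2 fold of 3.19 and rank 952 of 1008 under TGFβ1, and at 3.43 and rank 513 of 627 in control.

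P4HA2 encodes a catalytic subunit of collagen prolyl 4-hydroxylase, whose product stabilises the triple helix. Its enriched place is at chr5:132217225-132217336 on the minus strand, 112 nt long and 10517 to 10628 nt from the 5′ end of the gene. The highest log2 fold was 2.62 and 4.97 in the TGFβ1 libraries and 2.25 and 3.91 in the control libraries. The −log10 p was 3.20 and 17.0 under TGFβ1 and 0.91 and 3.88 in control. Replicate 2 thus passed the limits in both conditions and replicate 1 in neither. The means were 3.79 ± 1.66 under TGFβ1 and 3.08 ± 1.17 in control (SD, n = 2 each), and the difference of 0.72 is smaller than either SD. The TGFβ1 list holds the place at a log2 fold of 4.15 and rank 612, and the control list does not hold it. A second P4HA2 cluster, at chr5:132218545-132218645, stayed just under the limit in TGFβ1 replicate 2, with a log2 fold of 2.89 and a −log10 p of 4.24.

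LOXL2 encodes a secreted lysyl oxidase that starts collagen crosslinks, and it was the one member with an enriched cluster in all 4 libraries. Its main place is at chr8:23328385-23328504 on the minus strand, 120 nt long, and starts 75616 nt from the 5′ end of the gene. The highest log2 fold was 3.72 and 6.02 in the TGFβ1 libraries and 3.72 and 3.88 in the control libraries, with −log10 p of 14.5 and 37.6 under TGFβ1 and 10.4 and 14.9 in control. TGFβ1 replicate 2 stood above the other libraries, and TGFβ1 replicate 1 equalled control replicate 1 to 2 decimals. The means were 4.87 ± 1.62 under TGFβ1 and 3.80 ± 0.11 in control (SD, n = 2 each), and the difference of 1.07 is smaller than the SD under TGFβ1. The TGFβ1 list holds 2 peaks over this place, at log2 folds of 4.45 and 4.30, and the control list holds 1 at 3.80. LOXL2 has a further place at chr8:23319883-23320007, where only control replicate 2 was enriched, with 1.32 and 2.24 in the TGFβ1 libraries and 1.73 and 3.22 in the control libraries. The −log10 p there was 2.19 and 10.4 under TGFβ1 and 1.29 and 4.09 in control.

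BMP1 encodes the metalloproteinase that removes the C-propeptide of procollagen. Its longer enriched place is at chr8:22195460-22195586 on the plus strand, 127 nt long, and starts 30088 nt from the 5′ end of the gene. The highest log2 fold was 2.87 and 4.84 in the TGFβ1 libraries and 2.25 and 3.55 in the control libraries. The −log10 p was 5.60 and 22.8 under TGFβ1 and 2.52 and 5.67 in control. Again replicate 2 passed the limits in both conditions and replicate 1 in neither. The means were 3.85 ± 1.39 under TGFβ1 and 2.90 ± 0.91 in control (SD, n = 2 each), and their difference of 0.95 is smaller than the SD under TGFβ1. The TGFβ1 list holds this place at 3.85 and rank 702, and the control list does not. A shorter place of 12 nt at chr8:22194908-22194919 was enriched only in TGFβ1 replicate 2, with 2.71 and 3.87 in the TGFβ1 libraries and 2.60 and 2.17 in the control libraries. Its −log10 p was 2.39 and 10.4 under TGFβ1 and 1.30 and 1.38 in control. Exon, intron and UTR positions were not used here, so these places are described by their distance from the gene's 5′ end alone.

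**Figure D2:**
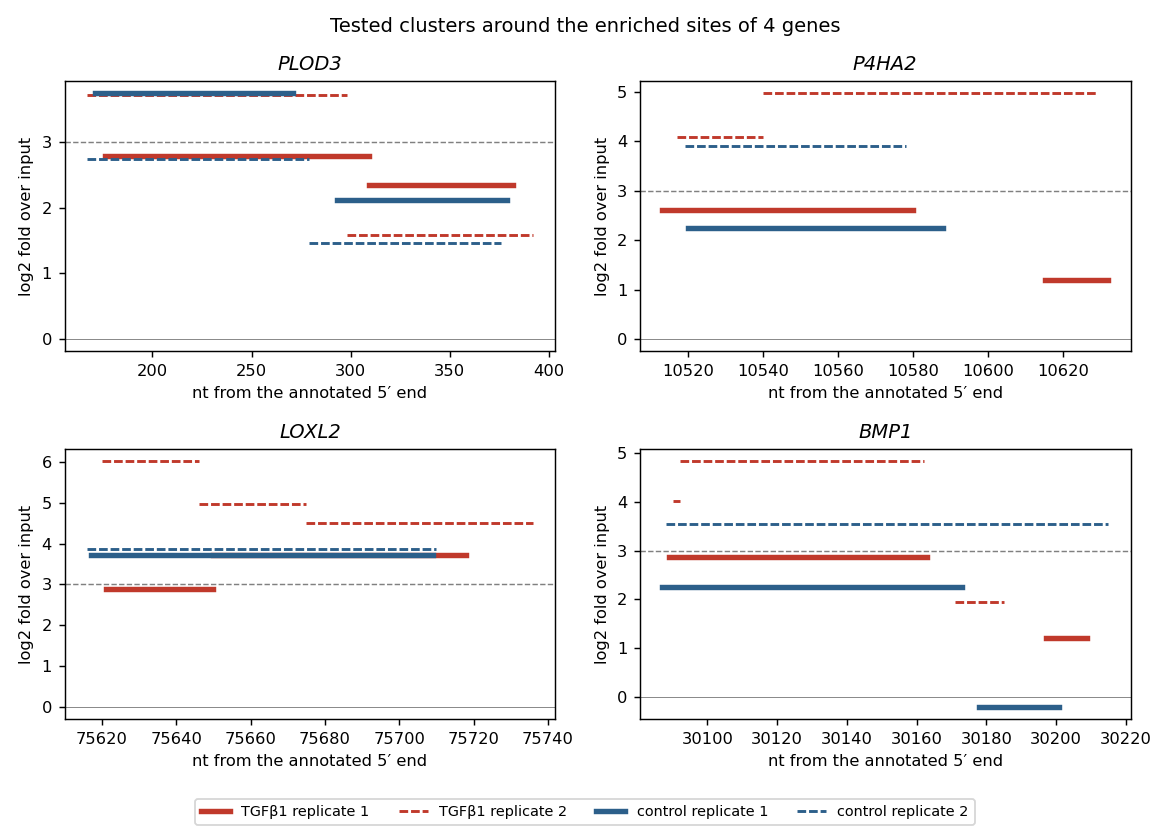
Log2 fold over input (vertical axis) of the tested clusters around an enriched place of PLOD3, P4HA2, LOXL2 and BMP1. The horizontal axis is the distance in nt from the annotated 5′ end. For LOXL2 the main place is drawn, and for BMP1 the longer one. TGFβ1 is in red and control in blue, with a solid line for replicate 1 and a dashed line for replicate 2. The highest cluster of replicate 2 lies above that of replicate 1 in both conditions for P4HA2, LOXL2 and BMP1.

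Across the 10 genes, 1 and 9 clusters were enriched in the TGFβ1 libraries and 2 and 4 in the control libraries. That is 0.763% and 4.57% of the members' clusters under TGFβ1, against 2.69% and 3.64% of all tested clusters in the same libraries. In control it is 1.94% and 3.60%, against 1.21% and 2.09% of all tested clusters. The members' share was thus below the background in TGFβ1 replicate 1 and above it in the other 3 libraries. These counts are of clusters and not of separate places. In TGFβ1 replicate 2, 3 abutting enriched clusters lay over the main LOXL2 place, 2 over the P4HA2 place and 2 over the longer BMP1 place. Each control library held 1 enriched cluster over the main LOXL2 place. The mean share was 2.67 ± 2.69% under TGFβ1 and 2.77 ± 1.18% in control (SD, n = 2 each). The difference of -0.11 percentage points had p = 1 in a two-sided exact permutation test over libraries, and the smallest p that this design allows is 0.333. For LOXL2 alone the share was 6.02 ± 3.27% under TGFβ1 and 4.24 ± 1.44% in control (SD, n = 2 each), with an exact permutation p of 0.667 and an adjusted p of 1 over the 5 comparisons made. The other 3 genes with an enriched cluster had p = 1 each in the same exact test.

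By gene, 1 and 4 of the 10 members had an enriched cluster in the TGFβ1 libraries, where 6.55% and 11.5% of all genes with a tested cluster did. In the control libraries 2 and 3 of 10 did, where 2.96% and 5.11% of all genes did. The members also held more tested clusters than most genes, and the part of this in the counts was not tested. The median was 13 and 20 clusters per member in the TGFβ1 libraries against 2 and 4 over all genes, and 9.5 and 7.5 in the control libraries against 3 and 3. Of the 5 TGFβ1 list peaks in members, 3 overlapped a peak of the control list, and both control list peaks overlapped one of the TGFβ1 list. Of those 3, 2 lie over the main LOXL2 place, where the control list holds 1 peak. The share over all list peaks is not given here, so whether the members differ from other genes in this was not tested.

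Of the 10 members, only PLOD1 and P4HA1 had a highest log2 fold that lay above both control libraries in both TGFβ1 libraries. Of all genes tested in the 4 libraries, 42.3% did. Neither PLOD1 nor P4HA1 had an enriched cluster. PLOD1 reached 2.20 and 2.89 in the TGFβ1 libraries and 0.79 and 1.43 in the control libraries. The −log10 p of these PLOD1 clusters was low, at 0.83 and 1.57 under TGFβ1 and 0 and 0.64 in control. P4HA1 reached 1.62 and 2.72 in the TGFβ1 libraries and 0.79 and 0.85 in the control libraries, with −log10 p of 0.40 and 2.46 under TGFβ1 and 0 and 0 in control. The highest fold is taken over more clusters under TGFβ1 in both genes, and the part of this in the values was not tested. The median fold over the clusters of PLOD1 lay the other way, at 0.20 and 0.31 in the TGFβ1 libraries and 0.38 and 0.42 in the control libraries, and that of P4HA1 overlapped between the conditions. These are the authors' values per cluster and were not tested between libraries. PLOD2, which encodes the lysyl hydroxylase of collagen telopeptides, passed the p limit alone with 1 cluster, at a log2 fold of 2.36 and a −log10 p of 3.51 in TGFβ1 replicate 2. The P4HA1 cluster at 2.72 had a −log10 p of 2.46, under both limits. PLOD1, LOX, SERPINH1 and PCOLCE had no cluster with both values at 2 or more. PCOLCE, the enhancer of BMP1, reached 1.94 and 0.89 in the TGFβ1 libraries and 1.38 and 1.26 in the control libraries.

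**Figure D3:**
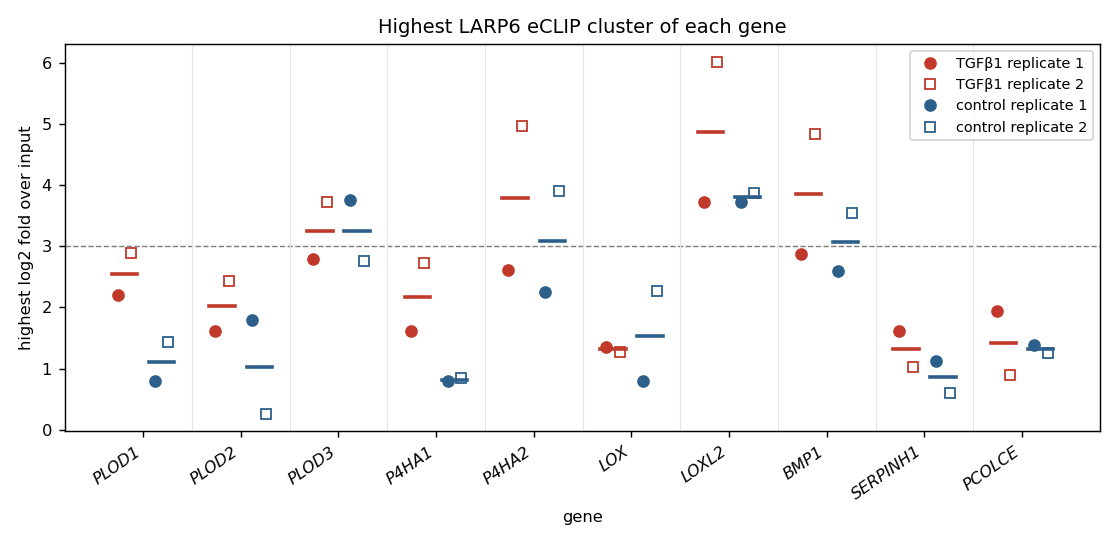
Highest log2 fold over input (vertical axis) of any tested cluster in each of the 10 genes (horizontal axis), one point per library with bars at the mean of the 2 libraries, TGFβ1 to the left of control. LOXL2 lies above the dashed line at 3 in every library, while PLOD3, P4HA2 and BMP1 lie on both sides of it.

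A second measure is the number of clusters tested in a gene, whatever their fold. PLOD2, PLOD1 and P4HA2 had more tested clusters under TGFβ1 in the test below, and no member was called lower. The number depends on how much of the RNA was sampled, so RNA level, LARP6 binding and depth cannot be told apart in it, nor can less RNA per cell be told apart from fewer cells. It was compared on log2(clusters per 10,000 clusters of the library + 0.5) with limma over 2289 genes with a mean of at least 5 clusters, and p-values were adjusted by the Benjamini-Hochberg method over all of them. In that fit, 216 genes (9.44%) were higher and 280 (12.2%) lower under TGFβ1 at an adjusted p under 0.05. This test was chosen after the values were seen.

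PLOD2 had 12 and 23 tested clusters in the TGFβ1 libraries and 2 and 1 in the control libraries. Scaled to the library, that is 3.85 and 4.22 per 10,000 under TGFβ1 and 0.390 and 0.251 in control, so the groups stood far apart. The log2 ratio was 2.47 with an SE of 0.38 and an adjusted p of 1.15e-05 (limma). Both control values lie under the 0.5 that was added before the log, so the size of this ratio depends on that constant. It was 3.32 with 0.1 added and 1.38 with 2 added, with an adjusted p under 0.05 in both (limma). PLOD1, which hydroxylates lysines of the collagen helix, had 15 and 27 clusters in the TGFβ1 libraries and 7 and 8 in the control libraries. Its values were 4.82 and 4.95 per 10,000 under TGFβ1 and 1.37 and 2.01 in control, without overlap, with a log2 ratio of 1.32, an SE of 0.33 and an adjusted p of 0.00373 (limma). P4HA2 had 12 and 21 clusters in the TGFβ1 libraries and 5 and 6 in the control libraries. Its values were 3.85 and 3.85 per 10,000 under TGFβ1 and 0.975 and 1.50 in control, again without overlap, with a log2 ratio of 1.34, an SE of 0.34 and an adjusted p of 0.00416 (limma). Each of these 3 calls was lost in limma when any 1 library was left out, as were most calls over all genes. Such a fit leaves 1 library in a condition, so the loss is not particular to these 3 genes. The log2 ratios stayed between 2.35 and 2.59 for PLOD2, 1.10 and 1.53 for PLOD1, and 1.12 and 1.56 for P4HA2.

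P4HA1, the other prolyl hydroxylase subunit, had 5 and 13 clusters in the TGFβ1 libraries and 3 and 3 in the control libraries, with a log2 ratio of 1.08 and an adjusted p of 0.0617 (limma). The groups did not overlap, but the test was not passed. PLOD3 had 6 and 10 in the TGFβ1 libraries and 3 and 7 in the control libraries, with a log2 ratio of 0.61 and an adjusted p of 0.314 (limma). LOXL2, which had an enriched cluster in every library, had 27 and 36 in the TGFβ1 libraries and 31 and 38 in the control libraries. Its log2 ratio was -0.01, with a 95% interval of -0.66 to 0.65. LOX, BMP1, SERPINH1 and PCOLCE had log2 ratios of 0.31, 0.43, 0.45 and 0.21, with adjusted p of 0.563, 0.381, 0.378 and 0.723 (limma).

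Over the 10 members the median log2 ratio was 0.53, against 0.12 over all genes tested, and 9 of 10 were above 0, against 57.3% of all genes. Both TGFβ1 libraries lay above both control libraries in 7 of 10 members, against 32.7% of all genes, and below them in 0 of 10, against 26.3%. Summed clusters of the 4 cholangiocyte markers moved the same way. The sums were 4.82 and 3.30 per 10,000 in the TGFβ1 libraries and 0.390 and 0.752 in the control libraries. All of these clusters lay in KRT7 and SOX9, most of those under TGFβ1 in KRT7, and EPCAM and KRT19 were at 0 in every library. The part of these clusters in the result was not tested. The 10 stellate cell markers summed to 181 and 125 per 10,000 in the TGFβ1 libraries and 91.3 and 140 in the control libraries, with overlap between the conditions. They include COL1A1, COL1A2 and COL3A1, which held 164, 165 and 127 of the 564 marker clusters in TGFβ1 replicate 1. In control replicate 1 these collagens held 95, 146 and 118 of 468. The sum thus rests mostly on the 3 collagens. Of the 4 macrophage and leukocyte markers only CD68 had clusters, and of the 4 endothelial markers only KDR, in TGFβ1 replicate 2.

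**Figure D4:**
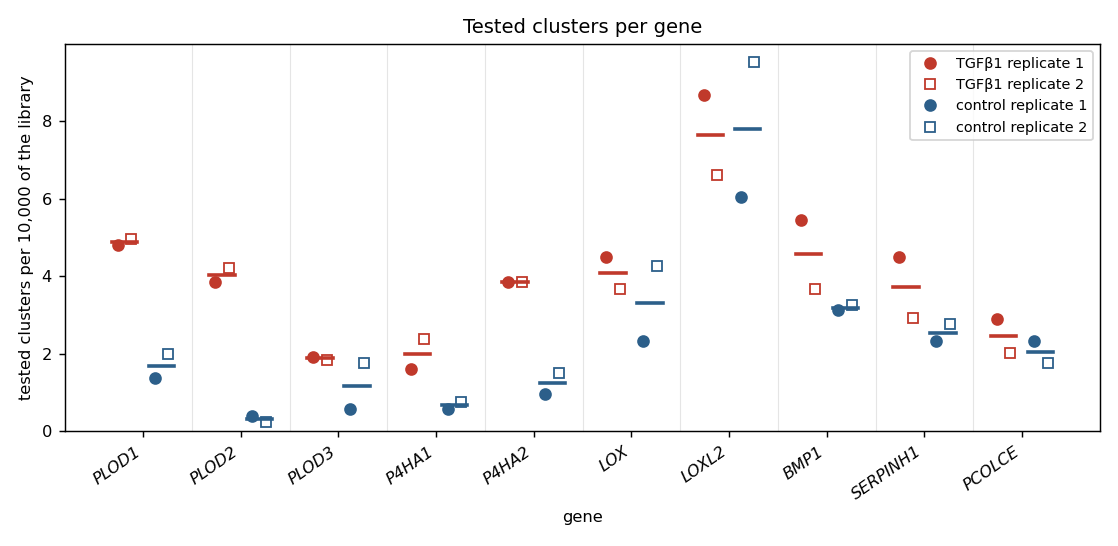
Tested clusters per 10,000 clusters of the library (vertical axis) in each of the 10 genes (horizontal axis), one point per library with bars at the mean of the 2 libraries, TGFβ1 to the left of control. PLOD2 shows the widest gap, with 3.85 and 4.22 under TGFβ1 and 0.390 and 0.251 in control, and the LOXL2 points of both conditions overlap.

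**Figure D5:**
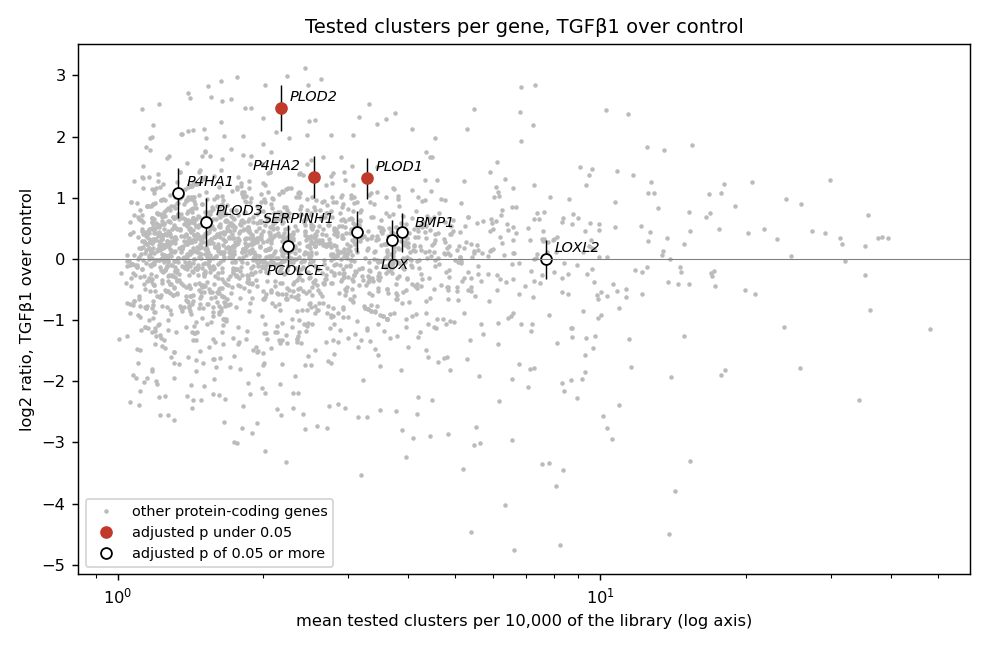
Log2 ratio of tested clusters, TGFβ1 over control (vertical axis), against the mean number of clusters per 10,000 (horizontal log axis) for 2289 protein-coding genes in grey, with the 10 members named and their SE drawn as bars. PLOD2, P4HA2 and PLOD1, in red, had an adjusted p under 0.05 in limma, and the other 7 members, drawn open, did not.

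A further 36 genes of collagen processing and export were listed. COLGALT2 could not be placed on a strand, and the other 35 were examined in the same way, of which 26 had tested clusters in both TGFβ1 libraries and 26 in both control libraries. KDELR2, a receptor that returns chaperones to the endoplasmic reticulum, was the only one with a peak in an authors' list, at a log2 fold of 3.19 under TGFβ1, and 0 had one in control. Of all genes tested in both libraries, 7.04% held a list peak under TGFβ1 and 3.88% in control. Whether these genes differ from that was not tested. The highest log2 fold of KDELR2 was 2.48 and 3.91 in the TGFβ1 libraries and 2.70 and 3.51 in the control libraries, and it passed both limits in TGFβ1 replicate 2 only. In cluster number, 19 of the 35 could be tested with limma, of which 3 were higher and 1 lower under TGFβ1, against 9.44% and 12.2% of all genes, and the median log2 ratio was 0.56, against 0.12 over all genes. The 4 were named after their values were seen. Each call was lost in limma when any 1 library was left out, as were most calls over all genes. SEC24D and SEC23A, which encode coat proteins of the vesicles that carry procollagen, had log2 ratios of 1.31 and 1.08, with adjusted p of 0.00743 and 0.0212 (limma). COLGALT1, a galactosyltransferase of hydroxylysine, had 1.17 with an adjusted p of 0.0190 (limma). ADAMTS2, the procollagen N-proteinase, had 22 and 32 clusters in the TGFβ1 libraries and 80 and 44 in the control libraries, with a log2 ratio of -0.97 and an adjusted p of 0.0246 (limma).

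For each enriched member, 406 other genes had a peak in either list and tested clusters in all 4 libraries. The 2 of them whose highest log2 folds lay nearest to the member's own were taken, with the mean absolute difference over the libraries as the measure. STT3B and GPC1 were nearest to LOXL2, at 0.14 and 0.18. ITGBL1 lay at 0.29 from PLOD3. P4HA2 and BMP1 lay near each other, at 0.27, and the further neighbours were MAN1A1 for P4HA2 at 0.30 and ARF1 and CYGB for BMP1 at 0.20 and 0.25.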

How the data were processed

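Peak lists of 4 immunoprecipitated LARP6 eCLIP libraries and 2 lists that the authors made from both replicates of a condition were used. The tools named per the submitters' processing notes are UMI-tools, cutadapt and STAR, without versions, and the build is GRCh38. How peaks were called, normalised to input and joined over replicates is not given in the sources used here. No list has a header. By their ranges, 1 deposited column holds the authors' log2 folds over input and another the authors' −log10 p-values, capped at 400. Values repeat: the 131 member clusters of TGFβ1 replicate 1 hold 63 different folds, and 50 have a −log10 p of 0.

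Clusters were assigned by midpoint to RefSeq GRCh38.p14 gene bounds on the gene's strand, which came from the RefSeq promoter table or, for LOXL2, BMP1 and the collagens, from the majority of clusters. Enriched clusters within 20 nt of each other were merged into places, with 1-based coordinates. Sequences are from RefSeq. Shares were compared by exact permutation over libraries. Cluster numbers were compared with limma 3.58.1 in R 4.3.3, and other work used Python 3.11.15. The code was tested on simulated data. All 10 members, other genes with a list peak, the 2 nearest genes per enriched member and 3 collagens were named by rule, and 1 gene so named is not reported here. Members and lists were chosen with earlier results of these data known. Alternatives were other limits, overlap rules and scalings, a block for the replicate number, and fits without each library in turn.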

Additional observations from a re-analysis of the deposited data

How the results depend on the processing

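At a log2 fold limit of 2, TGFβ1 replicate 1 had 5 enriched member clusters in 4 genes. At a limit of 4, 0 remained in TGFβ1 replicate 1 and in both control libraries, the TGFβ1 list held 3 peaks in 2 members and 0 in the other processing genes, the control list held 0, and 0 peaks were shared. At a −log10 p limit of 5, control replicate 1 had 1 enriched cluster in 1 gene and control replicate 2 had 2 clusters, the TGFβ1 list held 3 peaks in 2 members and 0 in the other genes, and the control list 1 in 1, which was shared. Requiring enrichment in both libraries left 1 peak in 1 member under TGFβ1 (0 in the other genes) and 1 in 1 in control. With 1 library left out, counts from the remaining ones ran from 1 to 9 peaks in 1 to 4 members under TGFβ1 and from 2 to 4 peaks in control, with 0 to 1 of the other genes in control, and shared peaks ran from 1 to 4 under TGFβ1 and 1 to 3 in control. The difference in enriched share changed sign, to 1.73, 1.78 and 1.28 percentage points at the fold limits of 2 and 4 and the −log10 p limit of 5, and ran from -2.01 to 1.80 with 1 library left out (1.80 without TGFβ1 replicate 1, 0.72 without control replicate 2). The cause was not tested.

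In limma, a mean of at least 10 clusters gave 126 genes higher and 184 lower and kept 6 members in the fit. With 1 library left out, 0 to 13 genes were higher and 0 to 68 lower, and 0 members passed. That fit has fewer samples and assumes that the lone library varies like the other condition. P4HA1 passed at a mean of at least 2 clusters (adjusted p = 0.0495) and on covered length (0.0235). With 1 library left out, the log2 ratios of LOX (-0.062 to 0.68), PCOLCE (-0.0080 to 0.42) and LOXL2 (-0.31 to 0.30) changed sign, as did LOXL2 on covered length (0.28). With the replicate number as a block, the exact p stayed at 1 and 3 members were higher in limma, with no member call changed. The labels do not say that the numbers pair samples. The fold limit of 2 could not be applied to the authors' lists, which hold no peak under 3.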

Other observations

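Of the other processing genes without a peak in either list, P4HB and LOXL1 each had 1 enriched cluster in 1 library. P4HB, which encodes the β subunit of prolyl 4-hydroxylase, reached a log2 fold of 3.14 and 1.80 in the TGFβ1 libraries and 2.70 and 1.72 in the control libraries. LOXL1, a lysyl oxidase known for elastin, reached 2.20 and 2.83 in the TGFβ1 libraries and 1.79 and 4.43 in the control libraries. Both were named after their values were seen. In 3 of the 7 list peaks of the members, the fold in the list equalled the mean of both libraries' values within 1e-06.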
